A study of Homo sapiens
Mus musculus with 8 samples.

Results

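The endoplasmic reticulum (ER) chaperones and the genes of the unfolded protein response were examined as a set of 40 member genes, 20 of mouse and their 20 human counterparts, chosen by name out of 60736 genes in the combined reference. Each of the 40 was found in the deposited count matrices under its symbol, and all 20 of a species passed the filter on low counts in every comparison below. The libraries came from equal mixtures of 4 unmodified lymphocyte cell lines in culture, with no treatment applied: the mouse T cell line EL4, the mouse B cell line IVA12, the human T cell line Jurkat and the human CD8 T cell line TALL-104, whose cells are smaller and were grown with interleukin 2. Each line was kept in its own medium, so that a difference between lines cannot be told apart from a difference between media. Libraries were made with 3 versions of the 10x Genomics Chromium kit: 3′ v3 (4 libraries), 5′ v1 (2 libraries) and 3′ v2 (1 library, replicate 2; replicate 1 was not analysed here). The kits read transcripts at one end only, as their names say, and count them by unique molecular identifiers (UMIs).

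The ER folds the proteins that a cell secretes or places in membranes. When unfolded proteins accumulate there, the sensors Ern1 (IRE1), Atf6 and PERK release the chaperone Hspa5 (BiP) and start the unfolded protein response: Ern1 splices the messenger RNA of Xbp1 into a form that encodes an active transcription factor, and Atf6 is cut into one. Their targets are chaperones, disulfide isomerases and the machinery that returns misfolded proteins to the cytosol for degradation. Antibody-secreting cells are the lymphocytes best known for this program, and they need Xbp1 to build their secretory apparatus. UMI sums per gene do not separate the spliced from the unspliced form of Xbp1.

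Cells were barcodes with at least 1000 UMIs, over 80% of them from one species, and under 10% mitochondrial UMIs. Lines were then assigned by marker genes outside the member set. These were Lgals1, S100a6 and Perp for EL4, and Epcam, Cd24a, Ctss and Ckap4 for IVA12. In human, NKG7, CST7 and CD8A marked TALL-104, and Jurkat was assigned by their low share. Totals per library ran from 24790710 to 251164949 UMIs, and 873 to 9624 cells per library were assigned. Sums per library and line rested on 29 to 3913 cells. TALL-104 was the thinnest, with 29 to 1049 cells a library and a median of 1966 to 2770 UMIs per cell. Other-species UMIs made up 14.3% of the TALL-104 sum in 3′ v3 replicate 3 and 1.11% to 7.68% in the other libraries. The labels were checked on genes not used for the assignment. Cd3e, Cd3d, Cd3g, Thy1 and Lat, all of T cells, were called lower in IVA12 than in EL4. Among B cell markers in IVA12, Cd79b lay at 204 to 343 CPM and Ebf1 at 9.71 to 16.8 CPM (counts per 1e6 UMIs of the species), whereas Cd79a and Pax5 stayed below 1 CPM. Plasma cell genes were high in IVA12: Jchain at 851 to 4358 CPM, Mzb1 at 767 to 1869 CPM, Sdc1 at 55.1 to 127 CPM. In TALL-104, PRF1 lay at 86.1 to 350 CPM, while CD8B was at 0 to 4.78 CPM and GNLY and KLRD1 were at 0 in at least 1 library. In Jurkat PRF1 lay at 1.50 to 7.20 CPM and CD8B at 2.53 to 9.82 CPM, so that CD8B did not mark TALL-104. TAL1 (41.5 to 93.65 CPM), LEF1 (179 to 503) and CD1E (230 to 491) were higher in Jurkat than in TALL-104 (at most 4.75, 52.6 and 15.2 CPM). CD3D and CD3E overlapped between the human lines.

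The first question was whether the 2 mouse lines differ in this program. They did for most members: 16 of 20 were higher in IVA12, 2 were lower (Atf6, Dnajc3) and 2 did not pass the test (Pdia3, Sel1l). The median difference of the 20 members was 1.04 on the log2 scale, against -0.0031 over all genes tested. Calls came from edgeR's quasi-likelihood test on sums per library and line with the library as a block, at a Benjamini-Hochberg adjusted p under 0.05. Over the 7 libraries, 38.1% of all 11628 mouse genes tested were called higher and 38.9% lower in IVA12. With a difference of at least 1 on the log2 scale required as well, 18.6% were higher and 19.7% lower, against 11 and 0 of the members.

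The sensor and the factor of the IRE1 branch stood at the top. Ern1 (ENSMUSG00000020715), which cuts the Xbp1 messenger, lay at 1.02, 1.66 and 5.50 CPM in EL4 (lowest, median and highest of the 7 libraries) and at 4.55, 16.2 and 37.1 CPM in IVA12. IVA12 was the higher line in 7 of 7 libraries, although the ranges overlapped across kits. In barcodes below 100 UMIs, which hold free RNA, Ern1 lay at 1.16 to 11.2 CPM of mouse UMIs, above EL4 in each library. The fitted difference was 2.88 ± 0.13 (log2, SE), or 7.34-fold (edgeR adjusted p = 2.81e-08). Xbp1, the factor it activates, ran from 26.2 to 66.9 CPM in EL4 and from 217 to 340 CPM in IVA12. Every IVA12 library was above every EL4 library, and the difference was 2.55 ± 0.13, or 5.84-fold (edgeR adjusted p = 5.36e-08). Atf6, the sensor cut in the Golgi, went the other way. Its levels were 40.2, 71.3 and 114 CPM in EL4 and 28.1, 52.4 and 74.3 CPM in IVA12. It was lower in IVA12 in 7 of 7 libraries, with a log2 difference of -0.73 ± 0.07 (edgeR adjusted p = 6.4e-06).

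All 5 chaperones were higher in IVA12. Hspa5, the Hsp70 chaperone of the ER lumen, lay at 89.9, 320 and 408 CPM in EL4 and 333, 643 and 727 CPM in IVA12. The ranges overlapped across libraries, yet within each of the 7 libraries IVA12 was above EL4, and the difference was 1.11 ± 0.15 (log2, SE). Hsp90b1 (GRP94, the Hsp90 of the ER) ran from 150 over 523 to 625 CPM in EL4 and from 691 over 1173 to 1233 CPM in IVA12, with no overlap and a difference of 1.25 ± 0.17. Hyou1, a large Hsp70 relative that serves as nucleotide exchange factor for Hspa5, lay at 10.1 to 35.0 CPM in EL4 and 36.8 to 91.0 CPM in IVA12. It differed by 1.48 ± 0.10. Of the lectin chaperones, which hold glycoproteins, calreticulin (Calr) differed by 1.02 ± 0.24 and calnexin (Canx) by 0.35 ± 0.07. The Calr difference varied with the kit: its mean level was 102 CPM in EL4 against 515 CPM in IVA12 with 5′ v1, and 400.4 against 648 CPM with 3′ v3.

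The disulfide isomerases split. Pdia4 lay at 20.1, 40.8 and 58.6 CPM in EL4 and 78.2, 148 and 167 CPM in IVA12, a difference of 1.86 ± 0.12 with no overlap. Pdia6 differed by 1.38 ± 0.18. Pdia3 (ERp57), the isomerase that works with calnexin and calreticulin, differed by 0.10 ± 0.14 and did not pass the test (edgeR adjusted p = 0.537). It was higher in IVA12 in 4 libraries and lower in 3. Its sign differed between the kits, each run on mixtures of its own. The difference was -0.20 in the 3′ v3 libraries alone. In those of 5′ v1 alone it was 0.63 and passed the test, as did 10393 of 12222 mouse genes.

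The secreted stress factors and the co-chaperones followed. Creld2, a stress-induced protein of the ER, lay at 42.7, 58.3 and 63.1 CPM in EL4 and at 214, 251 and 369 CPM in IVA12. These ranges did not overlap, and the difference was 2.19 ± 0.16, or 4.56-fold (edgeR adjusted p = 5.68e-07). Manf, a neurotrophic factor homologue that binds Hspa5, ran from 217 over 237 to 275 CPM in EL4 and from 495 over 686 to 792 CPM in IVA12. It differed by 1.31 ± 0.09. Among the co-chaperones, which bring clients to Hspa5, Sdf2l1 differed by 1.06 ± 0.22, Dnajb9 (ERdj4) by 0.94 ± 0.22 and Dnajb11 (ERdj3) by 0.72 ± 0.07. Dnajc3 (p58IPK), an inhibitor of PERK and a co-chaperone, was lower in IVA12 in 7 of 7 libraries. Its levels were 63.8 to 82.8 CPM in EL4 and 42.2 to 59.5 CPM in IVA12, a log2 difference of -0.62 with an SE of 0.11.

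Of the 3 degradation members, Edem1, a mannosidase-like protein that marks misfolded glycoproteins, lay at 79.7, 117 and 181 CPM in EL4 and 145, 230 and 399 CPM in IVA12. It differed by 0.87 ± 0.07. Herpud1, which organises the membrane ligase complex, differed by 0.52 ± 0.16. Sel1l, the adaptor of that complex, differed by 0.41 ± 0.20 and did not pass the test (edgeR adjusted p = 0.0773). The differences of Sel1l and Herpud1 also varied between the kits. In the 5′ v1 libraries alone their log2 differences were -0.34 and -0.15, and that of Dnajb9 was -0.024. Sel1l passed once either 5′ v1 replicate was left out (0.54 in both cases).

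**Figure D1:**
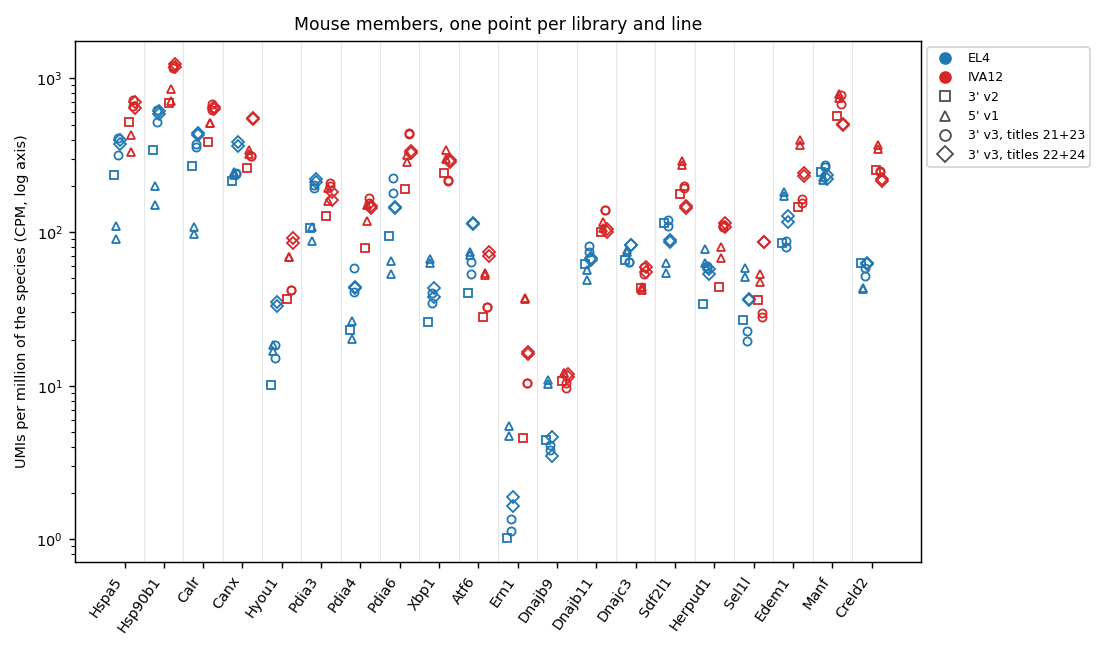
Levels of the 20 mouse members in CPM of mouse UMIs (vertical log axis), with a point for each library and line, EL4 in blue and IVA12 in red, and marker shapes for kit and preparation. Xbp1, Pdia4 and Creld2 show no overlap between the lines, whereas Atf6 and Dnajc3 lie lower in IVA12.

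Other genes of the pathway were counted from named lists. Of 18 further folding and oxidation enzymes, 14 were higher and 1 lower in IVA12, with a median log2 difference of 0.85. The largest were Fkbp11, a prolyl isomerase, at 5.43 ± 0.37, Erp29, a thioredoxin-like chaperone, at 2.63, and P4hb, the classical disulfide isomerase, at 1.54. Prdx4, a peroxidase of the ER, was lower at -0.58. Of 18 degradation genes 13 were higher and 1 lower (median 0.79). Edem2 at 2.98, Derl3 at 2.45 and Syvn1, the ligase partnered by Sel1l, at 1.64 led. Of 23 genes for the translocon, signal peptidase and oligosaccharyltransferase 18 were higher and 2 lower (median 0.61). Rpn2 at 2.17, Ssr2 at 1.83 and Ssr1 at 1.75 were the largest, against Tram1 at -1.98 and Serp1 at -0.20.

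Of 8 genes of the PERK arm tested, 4 were higher and 2 lower, with a median of 0.64, where over all mouse genes 38.1% were higher and 38.9% lower. Chac1 was higher by 1.69, Eif2ak3 (PERK itself) by 0.74 and Atf4 by 0.68, while Ddit3 (CHOP) lay at -1.47 and Asns at -0.84. Of 6 genes for sensor processing and related factors 5 were higher, with Creb3l2 at 2.79, Atf6b at 2.20 and Creb3 at 1.59, and Mbtps2, a protease that cuts Atf6, was lower at -1.60. Of 16 plasma cell and immunoglobulin genes, 6 carried a symbol found in the reference, and all 6 were higher in IVA12 (median 5.98). Jchain at 6.55, Mzb1 at 6.50 and Sdc1 at 6.14 were the largest. The part of these genes in the members' differences was not tested.

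The same question was put to the human lines. Of 20 members, 10 were higher in TALL-104, CALR was lower, and 9 did not pass the test. Among all 9571 human genes tested, 30.4% were higher and 33.2% lower in TALL-104. With a difference of at least 1 required as well, the shares were 16.1% and 18%, against 9 and 0 of the members. The median log2 difference was 0.39 for the members and -0.05 over all genes.

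**Figure D2:**
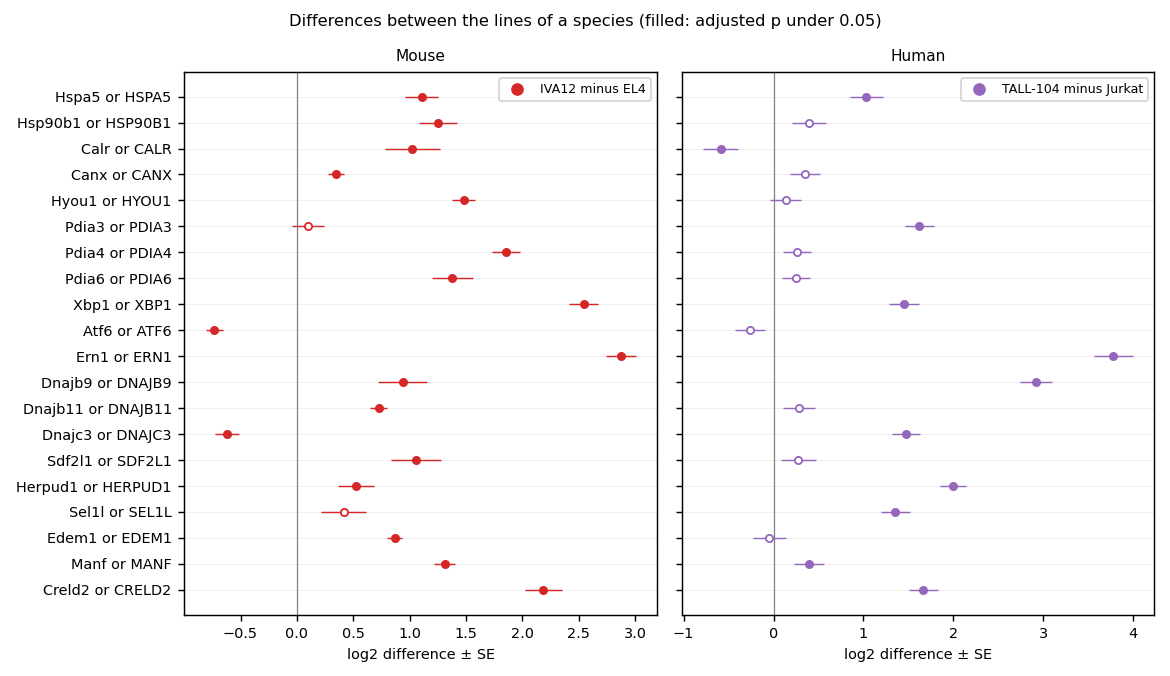
Fitted log2 differences with standard errors between the lines of a species, mouse on the left and human on the right, with filled points for an adjusted p under 0.05. Ern1 and ERN1 have the largest difference among the members of their panel, at 2.88 in mouse and 3.78 in human.

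ERN1 (ENSG00000178607) again stood at the top. It lay at 5.31, 7.59 and 15.8 CPM in Jurkat (lowest, median, highest) and at 33.2, 103 and 219 CPM in TALL-104. Every TALL-104 library was above every Jurkat library, with a difference of 3.78 ± 0.22 (log2, SE), or 13.7-fold (edgeR adjusted p = 1.12e-13). In barcodes below 100 UMIs, which hold free RNA, ERN1 lay at 4.97 to 41.4 CPM of human UMIs. XBP1 was at 46.8, 67.5 and 90.1 CPM in Jurkat and 82.9, 197 and 301 CPM in TALL-104. TALL-104 was higher in 7 of 7 libraries, by 1.46 ± 0.17. ATF6 differed by -0.27 ± 0.17 and did not pass the test (edgeR adjusted p = 0.17).

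DNAJB9 and HERPUD1 followed. DNAJB9 lay at 5.24, 12.5 and 14.5 CPM in Jurkat and 24.9, 82.7 and 115 CPM in TALL-104, a difference of 2.92 ± 0.18 (edgeR adjusted p = 4.63e-13). HERPUD1 lay at 22.3, 38.2 and 54.5 CPM in Jurkat and 58.1, 138 and 191 CPM in TALL-104, a difference of 2.00 ± 0.14. Neither gene's ranges overlapped. These values rest on 402 UMIs of DNAJB9 and 706 of HERPUD1 over all TALL-104 sums. CRELD2 was higher by 1.67 ± 0.17, DNAJC3 by 1.47 ± 0.16 and SEL1L by 1.35 ± 0.16, each in 7 of 7 libraries. In the 5′ v1 libraries alone DNAJC3 (0.73) and SEL1L (1.05) did not pass. MANF was higher by 0.39 ± 0.16, in 4 libraries of 7. It did not pass without 3′ v2 replicate 2, without any 1 of the 4 libraries of 3′ v3 (0.25 to 0.43) or in 5′ v1 alone (0.0005). It also did not pass by DESeq2 (0.30), with DESeq2 size factors in edgeR (0.30) or with no filter on low counts (0.20). The same held under a stricter rule for lines (0.38), without the library as a block (0.28) and in titles 21 and 23 alone (0.09).

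Among the folding members, PDIA3 and HSPA5 were higher in TALL-104. PDIA3 lay at 63.3, 111 and 195 CPM in Jurkat and 158, 386 and 488 CPM in TALL-104, and was higher in 7 of 7 libraries by 1.62 ± 0.16. HSPA5 lay at 76.2, 118 and 292 CPM in Jurkat and 149, 302 and 354 CPM in TALL-104. It was higher in 7 of 7 libraries by 1.03 ± 0.19 (edgeR adjusted p = 3.76e-05). CALR ran from 353 over 627 to 1023 CPM in Jurkat and from 191 over 413 to 517 CPM in TALL-104. It was lower in TALL-104 in 5 libraries and higher in the 2 of the preparation of titles 22 and 24, with a log2 difference of -0.59 and an SE of 0.19. CALR did not pass without the library as a block (-0.66) or in the 3′ v3 libraries alone (-0.30).

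The rest did not pass the test. HSP90B1 (0.39 ± 0.18), CANX (0.35 ± 0.16), DNAJB11 (0.29 ± 0.18), SDF2L1 (0.27 ± 0.20), PDIA4 (0.26 ± 0.16), PDIA6 (0.25 ± 0.15), HYOU1 (0.13 ± 0.17) and EDEM1 (-0.05 ± 0.19) each changed sign between libraries. In the 3′ v3 libraries of titles 22 and 24 alone 18 members passed, 17 of them higher in TALL-104, where 60.3% of 10055 genes passed, and CALR was higher by 0.30. In those of titles 21 and 23 alone 13 passed, 9 higher and 4 lower, which as a share of 20 was close to the 65.8% of 13275 genes. With library totals in place of TMM factors (edgeR's factors for composition), the median over all genes moved to -0.19, MANF did not pass (0.30) and ATF6 passed (-0.41). ATF6 also passed with DESeq2 size factors in edgeR (-0.40), no filter (-0.475), without 3′ v3 replicate 4 (-0.43) and in titles 21 and 23 alone (-0.44). HSP90B1 passed with at least 2000 UMIs (0.435) and without 5′ v1 replicate 2 (0.46). CANX passed without 3′ v3 replicate 3 (0.47), and SDF2L1 in 3′ v3 alone (0.61).

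**Figure D3:**
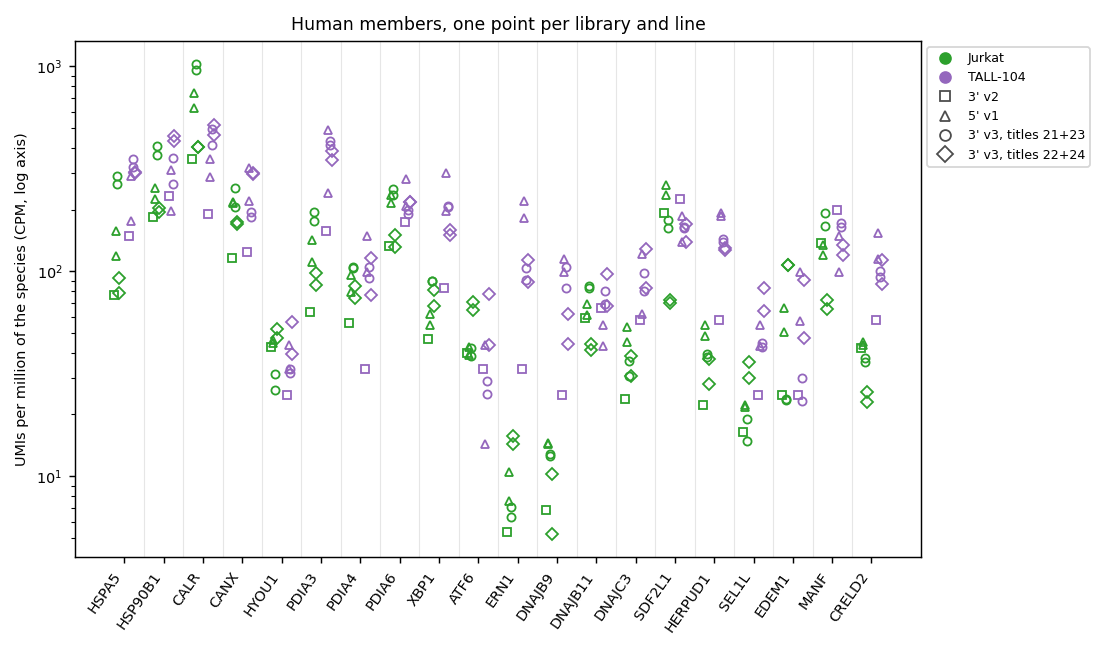
Levels of the 20 human members in CPM of human UMIs (vertical log axis), with a point for each library and line, Jurkat in green and TALL-104 in purple, and marker shapes for kit and preparation. ERN1, DNAJB9 and HERPUD1 show no overlap between the lines, whereas HSPA5 and CALR in Jurkat fall apart by preparation.

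The further genes of the pathway were counted in the human lines as well. Of 17 folding and oxidation genes tested, 11 were higher and 1 lower in TALL-104 (median log2 difference 0.90), with FKBP11 at 2.02, TXNDC11 at 1.50 and PPIB at 1.35, against PRDX4 at -1.17. Of 17 degradation genes 8 were higher and none lower (median 0.29), led by EDEM2 at 1.32, SELK at 1.23 and OS9 at 1.12. Of 23 translocon, signal peptidase and oligosaccharyltransferase genes 15 were higher and none lower (median 0.58), led by TRAM1 at 1.30, SSR2 at 1.21 and SEC11A at 1.08. Of 8 genes of the PERK arm tested 4 were higher and 1 lower (median 0.57), where over all human genes 30.4% were higher and 33.2% lower. DDIT3 was higher by 3.17, PPP1R15A, which restores translation, by 2.60, and EIF2AK3 by 1.53, while ATF3 was lower at -1.16. Of 5 tested genes of sensor processing 2 were higher, CREB3L2 by 2.13 and ATF6B by 0.82, and none was lower.

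The second question was whether kits gave different levels for the same line. Each kit was run on cell mixtures of its own, so kit and preparation cannot be told apart. In EL4, 6 members were higher in 3′ v3 than in 5′ v1 and 5 were lower. Over all 12141 genes tested, 19.3% were higher and 17.5% lower. Markers of IVA12 moved with the kit in the EL4 sums. Here and below, the lists for EL4, IVA12 and TALL-104 include the genes that assigned the lines. The assignment itself limits the levels of those genes. Of 7 tested genes of the list for IVA12 or B cells 3 were higher and none lower (median log2 difference 2.63), and of 5 tested plasma cell genes 3 were higher and none lower (2.21). The 9 genes of the first list together held 8.34 to 26.5 CPM of EL4 with 3′ v3 against 2.28 and 4.22 CPM with 5′ v1, where IVA12 held 679 to 995 CPM. The 6 plasma cell genes held 53.7 to 139 CPM of EL4 against 21.6 and 32.5 CPM, where IVA12 held 3106 to 6545 CPM in these kits. Their part in the members' values was not tested. The members that were higher were chaperones and isomerases. Hspa5 lay at 320, 375, 408 and 398 CPM in 3′ v3 replicates 1 to 4 and at 109 and 89.9 CPM in 5′ v1. It differed by 1.84 ± 0.22 (log2, SE), or 3.59-fold (edgeR adjusted p = 0.00146). Calr lay at 359, 430, 375 and 438 CPM in 3′ v3 and at 108 and 97.0 CPM in 5′ v1, a difference of 1.88 ± 0.17. In 5′ v1 both genes lay below their level in free RNA, 131 and 103 CPM for Hspa5 and 135 and 131 CPM for Calr. In 3′ v3 both lay above it in replicates 1 and 4 and below it in replicates 2 and 3. Hsp90b1 differed by 1.68 ± 0.23, Pdia6 by 1.52 ± 0.35, Pdia3 by 1.01 ± 0.18 and Pdia4 by 0.94 ± 0.28. For these 6 members no 3′ v3 library of EL4 reached down to either 5′ v1 library. Such separation was common: in CPM, 9 EL4 members lay wholly higher in 3′ v3, 6 wholly lower and 5 overlapped. Those wholly higher included Dnajb11, Sdf2l1 and Creld2, which did not pass the test. In IVA12 6 members lay wholly higher, 6 wholly lower and 8 overlapped. The same share over all genes was not counted, so these counts cannot be read as particular to the members.

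The 5 members that were lower in EL4 had several roles. Ern1 lay at 1.13, 1.66, 1.36 and 1.89 CPM in 3′ v3 and at 4.73 and 5.50 CPM in 5′ v1, a log2 difference of -1.85 ± 0.19. Each of these levels was below that of Ern1 in the free RNA of the same library. Dnajb9 lay at 3.80, 3.50, 4.10 and 4.65 CPM against 10.3 and 10.8 CPM, a difference of -1.45 ± 0.19. Its free RNA levels were 5.37, 16.0, 7.98 and 7.79 CPM in 3′ v3, above EL4 in each library. In 5′ v1 they were 9.89 and 8.45 CPM, below EL4. Sel1l (-1.04 ± 0.18), Edem1 (-0.88 ± 0.14) and Xbp1 (-0.81 ± 0.16) were lower as well. The remaining 9 EL4 members did not pass the test, among them the sensor Atf6 (0.11 ± 0.23) and the degradation member Herpud1 (-0.35 ± 0.21). With 5′ v1 replicate 2 left out, that kit had 1 library, assumed to vary like the others, and 5 members and 8.73% of 12690 genes passed, with Pdia3, Pdia4, Pdia6, Xbp1, Sel1l and Edem1 losing the call. Pdia4, Pdia6 and Xbp1 lost it without 5′ v1 replicate 1 as well. The single 3′ v2 library, with no replicate, held 234 CPM of Hspa5, 268 CPM of Calr, 1.02 CPM of Ern1 and 4.43 CPM of Dnajb9.

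In IVA12 only 3 of 20 members passed between kits, against 4.38% of 11966 genes higher and 4.78% lower. Ern1 lay at 10.4, 16.6, 10.4 and 16.2 CPM in 3′ v3 and at 36.6 and 37.1 CPM in 5′ v1, a log2 difference of -1.46 ± 0.18. Edem1 differed by -0.95 ± 0.17 and Hspa5 by 0.88 ± 0.20 (edgeR adjusted p = 0.0437). With 5′ v1 replicate 1 or 2 left out, that kit had 1 library, assumed to vary like the others, and 0.171% and 0.299% of all genes passed, none of them a member. Hspa5 did not pass without any 1 of the 3′ v3 libraries, with no filter on low counts or under 5% mitochondrial UMIs. The change between kits was tested between the mouse lines itself. The interaction of line and kit passed for 15 of 20 members, against 33.6% of 11929 genes. It was below zero, that is, the lines were closer together in 3′ v3, for Calr (-1.48 ± 0.12), Sdf2l1 (-1.36 ± 0.11), Pdia6 (-1.05 ± 0.13), Hsp90b1 (-0.99 ± 0.11) and Hspa5 (-0.92 ± 0.10) among others. It was above zero for Dnajb9 (1.35 ± 0.17), Sel1l (1.11 ± 0.27) and Herpud1 (1.01 ± 0.12). The markers of the lines moved closer together as well: the interaction was above zero for 7 of 8 genes of EL4 or T cells (median 3.58), and below zero for 5 of 7 of IVA12 or B cells (-2.62) and 3 of 6 of plasma cells (-2.63). In the IVA12 sums the 8 genes of EL4 or T cells together held 22.7 to 70.2 CPM with 3′ v3 against 6.29 and 11.3 CPM with 5′ v1. The part of these markers in the members' interaction was not tested.

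In Jurkat and TALL-104 no member passed between 3′ v3 and 5′ v1, by edgeR or by DESeq2. At an unadjusted p under 0.05 the counts were 1 and 2, and the share of all genes at that level was not counted. At the adjusted p, 7.46% of all genes were higher and 7.71% lower in Jurkat, and 2.7% and 2.26% in TALL-104. With library totals the higher share of the genes called moved from 54.41% to 41.76% in TALL-104. The interaction of line and kit in human passed for none of the 20 members by either tool, and 1.02% of 9759 genes passed at the adjusted p. At an unadjusted p under 0.05 the count was 4 members, with no share of all genes counted at that level. The standard errors in Jurkat were wide, 0.69 for HSPA5 and 0.58 for MANF, and its 2 preparations of 3′ v3 lay apart. HSPA5 was at 267 and 292 CPM in titles 21 and 23, at 78.6 and 93.1 CPM in titles 22 and 24, and at 157 and 118 CPM in the 5′ v1 libraries between them. Either preparation set alone against 5′ v1 gave 13 (8 higher, 5 lower) and 18 (4 higher, 14 lower) members in Jurkat, where 59.6% and 66.8% of all genes were called.

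The same fits gave 15 and 18 members in EL4 (66.1% and 70.3% of genes), 17 and 16 in IVA12 (60.0% and 67.3%), and 4 and 7 in TALL-104 (17.7% and 39.1%). Libraries of one preparation are splits of a single cell mixture, so these counts rest on the spread between libraries and not between cultures. In EL4 Hspa5 was higher than in 5′ v1 by 1.99 in titles 21 and 23 and by 1.65 in titles 22 and 24. Ern1 was lower in both, at -1.89 and -1.79.

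The third question was how far the 2 preparations of 3′ v3 differed within one kit. In Jurkat all 20 members passed, 15 lower and 5 higher in titles 22 and 24, where 30.4% of 13570 genes were lower and 26.6% higher. The median log2 difference of the members was -0.89, against 0.03 over all genes. HSPA5 fell from 267 and 292 CPM to 78.6 and 93.1 CPM, with a fitted log2 difference of -2.09 ± 0.11, or 4.27-fold lower (edgeR adjusted p = 3.11e-10). Each preparation is 1 cell mixture split into 2 libraries, so these errors and p-values measure the spread between splits and not between mixtures. Differences between preparations, here and below, were fitted with TMM factors, which the CPM do not carry. For members where both are given, falls were smaller and rises larger in CPM than in the fit. MANF fell from 192 and 167 CPM to 72.7 and 65.1 CPM (-1.81 ± 0.12). CALR fell from 963 and 1023 CPM to 404 and 404 CPM (-1.71 ± 0.10). SDF2L1 fell from 177 and 162 CPM to 72.0 and 69.9 CPM (-1.68 ± 0.12). In none of these 4 did the preparations overlap. Of all 20 members in Jurkat, 14 lay wholly lower in CPM in titles 22 and 24, 5 wholly higher and 1 overlapped. Separation was common in the other lines too. Wholly higher and wholly lower were 10 and 5 members in EL4, 8 and 7 in IVA12, and 7 and 6 in TALL-104. In EL4 this split ran opposite to the fitted one given below. The same share over all genes was not counted, so these counts cannot be read as particular to the members.

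Among the other Jurkat members PDIA3 (-1.45 ± 0.11), HSP90B1 (-1.38 ± 0.10), DNAJB11 (-1.37 ± 0.12) and PDIA6 (-1.23 ± 0.11) also fell by more than 1 on the log2 scale. CRELD2, DNAJB9, CANX, PDIA4, HERPUD1, XBP1 and DNAJC3 fell by less, from -0.99 for CRELD2 to -0.33 for DNAJC3. The members that rose were EDEM1, from 23.9 and 23.4 CPM to 107 and 107 CPM (1.76 ± 0.11), ERN1 (0.77 ± 0.19), SEL1L (0.58 ± 0.15), ATF6 (0.36 ± 0.11) and HYOU1 (0.35 ± 0.13). By role, 4 of 5 chaperones and all 3 isomerases were lower. The calls of the smaller changes depended on the fit. Without 3′ v3 replicate 4, EDEM1 alone of the 5 that rose passed, with ERN1 at 0.66, SEL1L at 0.39, ATF6 at 0.25 and HYOU1 at 0.42. HYOU1 also lost the call without replicate 1 or 2, and HYOU1 and ATF6 lost it by DESeq2 and with no filter on low counts. DNAJC3 lost it by DESeq2, with at least 2000 UMIs per cell, under the stricter rule for lines, without barcodes of very high UMIs, and without replicate 2 (-0.25) or 3 (-0.20). With library totals DNAJC3 changed sign, and XBP1 (-0.25), DNAJB9 (-0.53) and HERPUD1 (-0.31) did not pass.

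Jurkat cells of titles 22 and 24 differed in quality as well. The mitochondrial limit kept 49.5% and 46.2% of their barcodes, against 97.1% and 99.4% in titles 21 and 23, and the median was 10407 and 9727 UMIs per cell against 17703 and 17938. For TALL-104 the limit kept 69.1% and 65.4% against 88.9% and 99.9%. With the limit at 5% mitochondrial UMIs, only 10 and 28 Jurkat cells of titles 22 and 24 were left, and 9 members passed, 8 lower and 1 higher, where 22.3% of 9924 genes passed. With the limit at 20% all 20 members and 63.5% of 13817 genes passed. The part of cell quality in the result was not tested.

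**Figure D4:**
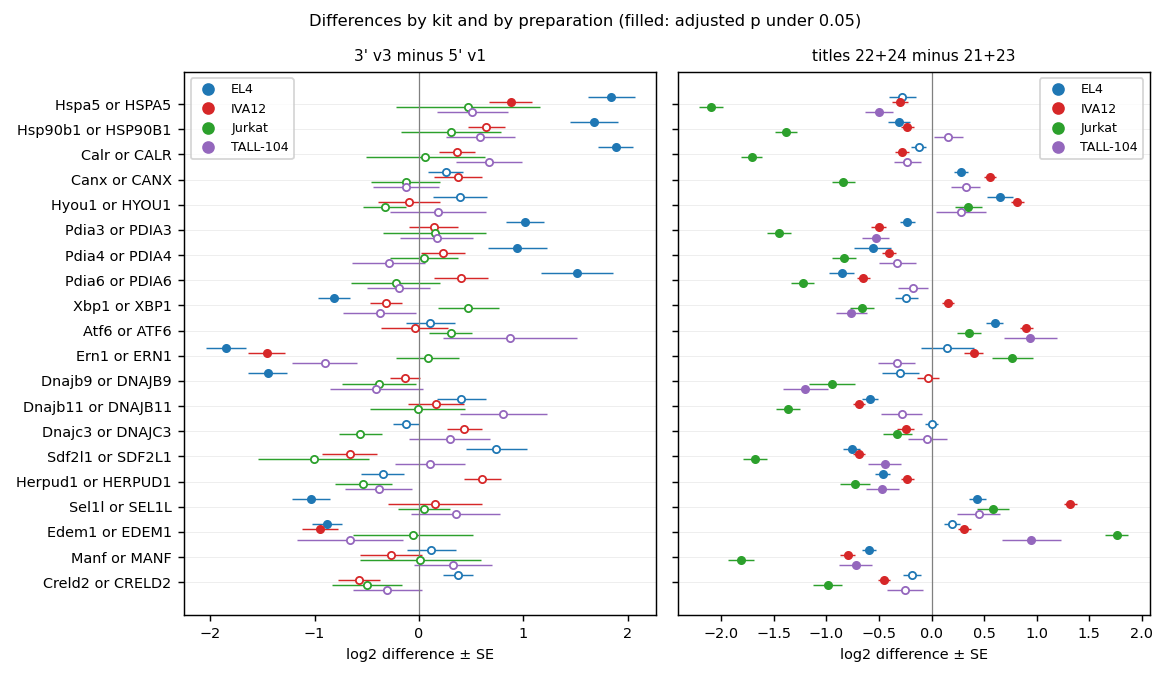
Fitted log2 differences with standard errors for each line, between kits on the left and between the 3′ v3 preparations on the right, with filled points for an adjusted p under 0.05. Jurkat lies far below zero for HSPA5, MANF and CALR on the right, and EL4 lies far above zero for Hspa5, Hsp90b1 and Calr on the left.

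The preparations were compared in the mouse lines and TALL-104 as well. In EL4 4 members were higher and 8 lower in titles 22 and 24 (27.1% and 30.1% of 11980 genes), in IVA12 7 and 12 (33.3% and 34.6% of 11667), and in TALL-104 2 and 7 (18.6% and 18% of 8567). Without 3′ v3 replicate 4, 5 TALL-104 members passed, where 15.7% of 9021 genes did, and ATF6, HSPA5, SDF2L1 and HERPUD1 lost the call, ATF6 at 0.36 in place of 0.94. Under 5% mitochondrial UMIs, with 94 and 138 EL4 cells of titles 22 and 24 left, only Hyou1 passed in EL4, where 12.3% of 10404 genes did, and Atf6 was at 0.17. Sdf2l1 fell in EL4 and IVA12 as in Jurkat, from 109 and 120 CPM to 85.8 and 88.4 CPM in EL4 (-0.76 ± 0.08) and from 199 and 192 CPM to 147 and 143 CPM in IVA12 (-0.69 ± 0.06). In TALL-104 SDF2L1 lay at 164 and 162 CPM in titles 21 and 23 and at 170 and 139 CPM in titles 22 and 24, so that the preparations overlapped in CPM, and the difference fitted with TMM factors was -0.45 ± 0.16 (edgeR adjusted p = 0.0294). It did not pass by DESeq2 (-0.46), with library totals (-0.10) or under the stricter rule for lines (-0.30). Manf differed by -0.59 in EL4, -0.80 in IVA12 and -0.72 in TALL-104, where it did not pass with library totals (-0.38). Atf6 rose from 63.5 and 53.2 CPM to 114 and 112 CPM in EL4 (0.60 ± 0.08) and by 0.90 in IVA12. In the human lines ATF6 differed by 0.94 in TALL-104 and 0.36 in Jurkat, and passed in neither by DESeq2 (0.83 and 0.34). EDEM1 differed by 0.95 in TALL-104 and did not pass by DESeq2 (0.98). Its difference was 0.50 without 3′ v3 replicate 2 and 0.63 without replicate 3. Hyou1 rose in EL4 (0.65 ± 0.12) and IVA12 (0.81 ± 0.06). Sel1l rose in IVA12 from 29.9 and 28.0 CPM to 85.9 and 85.8 CPM (1.32 ± 0.06), the largest rise of a member in that line, and by 0.44 ± 0.08 in EL4.

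Markers of the lines moved with the preparation too, in lists that for EL4, IVA12 and TALL-104 include the genes that assigned the lines. Of 8 genes of EL4 or T cells 6 were lower in titles 22 and 24, both in EL4 (median log2 difference -1.18) and in IVA12 (-1.48). Together they held 4371 and 4637 CPM of EL4 in titles 21 and 23 against 3144 and 3298 CPM in titles 22 and 24. Of IVA12 they held at most 70.2 CPM in titles 21 and 23 against 22.7 and 37.6 CPM, with no overlap. Of the genes of IVA12 or B cells 4 of 6 tested were lower in IVA12 (-0.62) and 2 of 8 in EL4 (-0.14). They held 949 and 995 CPM of IVA12 against 679 and 688 CPM. Of 6 plasma cell genes 3 were higher and 3 lower in IVA12, and of 5 tested in EL4 none passed in edgeR, where the count at an unadjusted p under 0.05 was 0 as well. In Jurkat 3 of 5 tested genes of TALL-104 or cytotoxic cells were lower (-0.86), and of 5 Jurkat genes 2 were higher and 3 lower (-0.36). In TALL-104 the counts were 2 higher and 2 lower of 6 (0.05), and 2 lower of 4 (-0.74). The Jurkat list holds CD3D and CD3E, which overlapped between the human lines. Its genes together held 1462.5 to 2080 CPM of TALL-104 in 3′ v3, so the list does not mark Jurkat alone. The part of these markers in the members' values was not tested.

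These preparation counts depended on the scaling between libraries. With library totals as the scale the median over all genes moved to 0.34 in EL4, 0.24 in IVA12, 0.45 in Jurkat and 0.36 in TALL-104. The members then split into 7 higher and 4 lower in EL4, 7 and 6 in IVA12, 5 and 11 in Jurkat, and 6 and 2 in TALL-104. Under that scale 7200 of 11980 genes were called in EL4, 8000 of 11667 in IVA12, 8444 of 13570 in Jurkat and 3466 of 8567 in TALL-104. Over all genes called, the higher share moved from 47.38% to 77.08% in EL4, from 49.05% to 65.28% in IVA12, from 46.66% to 71.27% in Jurkat and from 50.8% to 80.58% in TALL-104. Under that scaling Hsp90b1 and Pdia3 in EL4, Hsp90b1, Dnajc3 and Herpud1 in IVA12, and DNAJC3 in Jurkat changed sign.

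The difference between preparations was tested between lines as well. In human the interaction of line and preparation passed for 11 of 20 members, against 17.5% of 10052 genes. It was above zero for HSPA5 (1.36 ± 0.13), HSP90B1 (1.30 ± 0.11), CALR (1.27 ± 0.10), CANX (0.98 ± 0.12), SDF2L1 (0.98 ± 0.16) and 4 others, whose difference between preparations was lower in Jurkat than in TALL-104. It was below zero for ERN1 (-1.35 ± 0.26) and EDEM1 (-1.06 ± 0.25). In mouse it passed for 6 of 20 members, against 14.4% of 12341 genes, and only for Sel1l did it exceed 0.5 on the log2 scale (0.83 ± 0.09).

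Summed over the 20 members, the set took a small share of the UMIs of each line. In EL4 the share was 0.272% to 0.314% over the 4 libraries of 3′ v3. The 5′ v1 libraries of that line held 0.166% and 0.178%, and the single 3′ v2 library held 0.206%. IVA12 gave 0.559% to 0.573% with 3′ v3, 0.497% and 0.540% with 5′ v1, and 0.394% with 3′ v2. IVA12 was above EL4 in every library. In Jurkat the share was 0.309% and 0.328% in titles 21 and 23, and 0.180% in each library of titles 22 and 24. The 5′ v1 libraries of Jurkat held 0.267% and 0.244%, and the 3′ v2 library 0.164%. TALL-104 gave 0.317% to 0.353% with 3′ v3, 0.305% and 0.357% with 5′ v1, and 0.197% with 3′ v2. In free RNA the mouse members made up 0.0962% to 0.477% of mouse UMIs and the human members 0.170% to 0.346% of human UMIs.

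**Figure D5:**
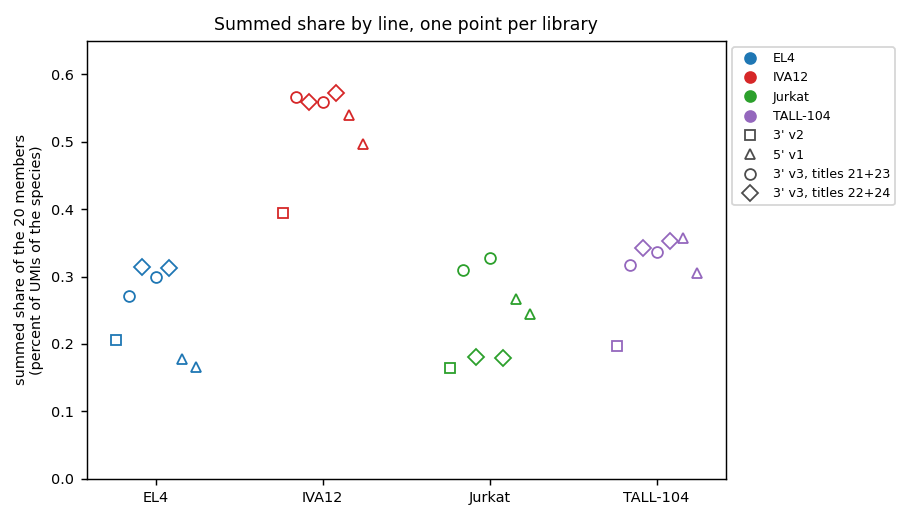
Summed share of the 20 members in percent of the UMIs of the species (vertical axis from 0), with a point for each library in each line and marker shapes for kit and preparation. IVA12 lies above EL4 in every library, and the Jurkat libraries of titles 22 and 24 lie at 0.180%, below those of titles 21 and 23.

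Members also varied from cell to cell within a line. Cells of EL4, IVA12 and Jurkat were thinned to 10000 UMIs each, and TALL-104 was left out for its low depth. Cells with fewer UMIs were left out, and this was uneven: 68 Jurkat cells were left out and 76 kept in 3′ v3 replicate 2, 212 and 199 in replicate 4, and 244 and 2792 in replicate 3, while of EL4 1260 were left out and 2653 kept in replicate 3. The values below describe only the deeper cells. The median thinned cell held 15 to 31 member UMIs in EL4, 35.5 to 55 in IVA12 and 15 to 29 in Jurkat. Rank correlations were computed for pairs of members with a mean of at least 1 UMI per thinned cell, and are given as descriptions. In IVA12 the pairs that rose and fell together most were Hspa5 and Hsp90b1 (median Spearman's rho 0.41 over 7 libraries, range 0.19 to 0.42), Hsp90b1 and Calr (0.40) and Hspa5 and Manf (0.39). In Jurkat they were HSPA5 and HSP90B1 (0.33 over 4 libraries, range 0.32 to 0.35), HSPA5 and MANF (0.27) and HSP90B1 and MANF (0.27). HSPA5 reached the mean only in the libraries of titles 21 and 23 and of 5′ v1, where its Jurkat level was higher than in the others. Over all 7 libraries HSP90B1 and PDIA6 gave 0.22, with a range of 0.096 to 0.30. In EL4 Hspa5 and Hsp90b1 led as well, at 0.19 over 6 libraries. The median over all pairs in a library was at most 0.19. Cells of a library share its depth and free RNA.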

How the data were processed

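Single-cell RNA-seq libraries of a mixture of 4 lymphocyte cell lines were analysed from the UMI counts per gene and barcode that the authors deposited (raw, not normalized). Per the study's methods and the labels, the authors downsampled reads with seqtk, and ran Cell Ranger 3.0.2 with STAR on combined hg19 and mm10 references. Samples were grouped by the kit in their titles, and preparations were taken from the study's sample summary. Both lines of a species lie in every library, so line comparisons paired them by library. Libraries of a preparation are splits of 1 mixture, and p-values measure the spread between libraries, which may be technical.

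Cells and lines were assigned as described, a mouse line needing a 5 times larger marker sum and a human line at least 0.1% (TALL-104) or under 0.02% (Jurkat) marker UMIs. Species mixtures fell to the 80% rule. No doublet caller was run. Sums were tested with edgeR 4.0.16 (quasi-likelihood, TMM factors, filterByExpr with a minimum count of 10) in R 4.3.3, with p-values adjusted over all genes of the species. DESeq2 1.42.0 was the alternative, and the alternatives covered limits on UMIs and mitochondrial share, the line rule, scaling, filtering and each library left out. Code was tested on simulated data. CPM used the UMIs of the species as denominator. Summed shares are given without an estimate of error, and those of TALL-104 rest on as few as 29 cells in a library. Few barcodes were shared between libraries (0 to 23 of any pair). All members were named, and of each other list at most 3 genes per direction with the largest called differences in the line comparison. The members and lists were chosen with earlier results of these data known. No reference sequences or gene locations of these builds were used here. Values of 2 listed genes are not reported here.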

Additional observations from a re-analysis of the deposited data

Results flagged for a closer look

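A result was singled out where the difference between lines changed with kit or preparation (interaction of edgeR, adjusted p under 0.05) by at least 0.5 on the log2 scale, or where 1 of the 4 libraries of 3′ v3 stood far from the other 3 in a line. Of 80 tests of the second kind none was met. The 4 libraries are 2 splits of each of 2 mixtures, so where the mixtures lie apart a single library can hardly stand out from the other 3.

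The IVA12 against EL4 difference changed between 3′ v3 and 5′ v1 for 13 members. It was lower in 3′ v3 for Calr (-1.48), Sdf2l1 (-1.36), Pdia6 (-1.05), Hsp90b1 (-0.99), Hspa5 (-0.92), Creld2 (-0.92), Pdia3 (-0.85) and Pdia4 (-0.65). It was higher in 3′ v3 for Dnajb9 (1.35), Sel1l (1.11), Herpud1 (1.01) and Xbp1 (0.54), and less negative for Dnajc3 (0.60). Kit and preparation cannot be told apart here. The same interaction was above zero for 7 of 8 markers of EL4 or T cells (median 3.58). It was below zero for 5 of 7 of IVA12 or B cells (-2.62) and 3 of 6 of plasma cells (-2.63). The lists for EL4 and IVA12 include the genes that assigned the lines. The part of these markers in the members' values was not tested.

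Between the 3′ v3 preparations the IVA12 against EL4 difference changed for Sel1l (0.83). The TALL-104 against Jurkat difference changed for 11 members: it was higher in titles 22 and 24 for HSPA5 (1.36), HSP90B1 (1.30), CALR (1.27), CANX (0.98), SDF2L1 (0.98), MANF (0.87), PDIA6 (0.85), DNAJB11 (0.82) and PDIA3 (0.74), and lower for ERN1 (-1.35) and EDEM1 (-1.06). Jurkat kept 49.5% and 46.2% of its barcodes under the mitochondrial limit in those libraries, and the part of that in these values was not tested.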

How the results depend on the processing

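Between the mouse lines 17 to 20 members passed under 14 alternatives, and between the human lines 9 to 18 under 13, with 18 in the 3′ v3 libraries of titles 22 and 24 alone. Without the library as a replicate block the counts were 17 and 9. The share of all genes passing varied between these fits as well. In mouse 6846 of 11628 genes passed without the block and 10393 of 12222 in 5′ v1 alone. In human 4710 of 9571 passed without the block, 3204 of 11445 in 5′ v1 alone and 8738 of 13275 in titles 21 and 23 alone. The member counts therefore cannot be read apart from the number of genes each fit called. The kit counts moved with preparation: EL4 gave 18 with titles 22 and 24 alone, IVA12 17 and 16 with either preparation, Jurkat 13 and 18, TALL-104 4 and 7. IVA12 gave 5 by DESeq2 (16.1% of all genes) and 6 with library totals (10.1%), and Jurkat 1 under 5% mitochondrial UMIs (27.3%). Leaving out 1 library gave 5 to 12 members in EL4 (5 without 5′ v1 replicate 2), 0 to 2 in IVA12 (0 without either 5′ v1 replicate, which leaves that kit 1 library) and, between preparations in TALL-104, 5 to 11 (5 without 3′ v3 replicate 4). Between preparations, the 5% limit left 1 member in EL4 (12.3% of all genes) and 9 in Jurkat (22.3%), and DESeq2 gave 5 in TALL-104 (15.0%). DESeq2 gave 2 for the mouse interaction of line and preparation (6.99%). The 5% limit gave no value for fits with TALL-104, since a library held no such cell.

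Sign and call of single members were followed for all members between lines and, between kits and preparations, only for the members that had passed. Signs changed between mouse lines for Pdia3 (3′ v3 -0.20, titles 21 and 23 -0.082, titles 22 and 24 -0.38) and, in 5′ v1 alone, Dnajb9 (-0.024), Herpud1 (-0.15) and Sel1l (-0.34). Between human lines HYOU1 was -0.017 by DESeq2, -0.0023 with library totals, -0.073 with no filter, -0.084 to 0.20 with 1 library left out (lowest without 3′ v3 replicate 1), -0.035 with no block and -0.33 in 5′ v1. EDEM1 was 0.010 under 20% mitochondrial UMIs, 0.0037 without barcodes of very high UMIs, -0.27 to 0.23 with 1 library left out (highest without 3′ v3 replicate 4), 0.30 in 5′ v1 and 0.30 in titles 21 and 23. In 5′ v1 DNAJB11 was -0.54 and SDF2L1 -0.70, in titles 21 and 23 HSP90B1 was -0.14, PDIA6 -0.16 and CANX -0.14, and in titles 22 and 24 CALR was 0.30. Between preparations, library totals gave 0.055 for Hsp90b1 and 0.13 for Pdia3 in EL4, 0.026 for Hsp90b1, 0.0090 for Dnajc3 and 0.023 for Herpud1 in IVA12, and 0.088 for DNAJC3 in Jurkat, and the 5% limit gave -0.082 for Xbp1 in IVA12. The cause was not tested. Of the 1829 member values recomputed in this way 1637 kept sign and call, 139 lost the call, 23 gained it (all between lines) and 30 changed sign. TALL-104, with its few UMIs, limits the human comparisons.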
